A study of Mus musculus with 32 samples.

Results

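The region described here is the stretch of mouse chromosome 12 around Esrrb, positions 87695000 to 87870000 of the mm9 build, a window of 175 kb. Its members are all peaks of 26 deposited ChIP-seq peak lists that overlap this window by at least 1 base. There were 212 such peaks among 387563 peaks in all lists. The window was chosen by the TAF6L-FB fold enrichment, because it holds one of the strongest TAF6L-FB regions of the series, so TAF6L-FB strength is given as a description and supports nothing. The windows of the same length before and after it held 17 and 14 peaks over all lists. The study compared J1 mouse embryonic stem cells without Taf5l (Taf5l-KO) and without Taf6l (Taf6l-KO) with wild-type J1 cells. In each genotype, 7 targets were precipitated with antibodies: Oct4, Myc, the histone marks H3K9ac and H3K4me3, RNA polymerase II (RNAP), and its forms phosphorylated at serine 5 (RNAP-ser5) or serine 2 (RNAP-ser2). Tagged TAF5L-FB (lines A5 and A6) and TAF6L-FB (lines 15 and 9) were captured on streptavidin from J1 lines labelled WT, with BirA, the biotin ligase alone, as the control. All cells were grown in serum with LIF and fixed with formaldehyde. The labels give 1 library per antibody and genotype and do not say whether a knockout line is 1 clone. No test between genotypes could therefore be made, and no p-value is given. No expression was measured in these files.

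Esrrb encodes an orphan nuclear receptor that binds DNA and helps keep mouse embryonic stem cells self-renewing, together with Oct4, Sox2 and Nanog. TAF5L and TAF6L are subunits of SAGA-type coactivator complexes, which carry an acetyltransferase whose targets include lysine 9 of histone H3. H3K9ac and H3K4me3 mark active promoters and their flanks. RNA polymerase II phosphorylated at serine 5 is typical of the early part of a transcribed gene and the serine 2 form of elongation through the gene body.

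RefSeq annotates 2 starts of Esrrb on the plus strand of GRCm38.p6, 60527 bases apart, in a gene of 160512 bases. The 250 bases before each start are shown because H3K4me3 and polymerase, which make up most of the window's peaks, are known to gather at starts. These promoters belong to another build than the peaks, so they were not placed against them. For the same reason no peak was assigned to an exon, an intron or a start, and whether the TAF6L-FB region is intronic was not analysed here. Capitals mark CG dinucleotides, which H3K4me3-rich promoters often hold in number.
Esrrb start 1, chr12:86360867-86361116, plus strand: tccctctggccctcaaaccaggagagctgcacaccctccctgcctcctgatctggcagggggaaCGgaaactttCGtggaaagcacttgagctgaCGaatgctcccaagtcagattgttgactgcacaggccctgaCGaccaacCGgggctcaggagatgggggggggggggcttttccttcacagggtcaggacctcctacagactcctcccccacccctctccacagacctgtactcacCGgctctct
Esrrb start 2, chr12:86421394-86421643, plus strand: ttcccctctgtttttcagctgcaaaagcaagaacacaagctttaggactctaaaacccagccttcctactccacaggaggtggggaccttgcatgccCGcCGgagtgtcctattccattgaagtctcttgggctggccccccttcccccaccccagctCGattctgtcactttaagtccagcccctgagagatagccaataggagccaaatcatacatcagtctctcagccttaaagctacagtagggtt
The stretch before start 1 holds 6 CG dinucleotides at a GC content of 60.8%, and the stretch before start 2 holds 3 at 52.0%. Over 32851 RefSeq promoters of the same length the median was 6 CG dinucleotides and a GC content of 52.4%, and 50.4% held at least 6. At least 3 were present in 71.0%. Both strands were searched for the octamer ATGCAAAT bound by Oct4, the E-box CACGTG bound by Myc, and the element TCAAGGTCA bound by estrogen-related receptors. None of these letters occurred in either stretch, while they occurred in 1.60%, 6.02% and 0.387% of all promoters in that order. This says only that these exact letters are not in these bases.

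Of the 26 lists, 19 held at least 1 peak in the window. The 7 lists with none were the 3 Myc lists, the H3K9ac lists of both knockouts, TAF5L-FB A6 and BirA. Unique tags per ChIP library ranged from 1702363 to 27775010, and the lowest number belonged to RNAP-ser5 in Taf6l-KO, where 92.6% of the tags were duplicates. The other polymerase libraries were also rich in duplicates, from 53.2% for RNAP in Taf5l-KO to 87.8% for RNAP-ser5 in wild type. RNAP-ser2 in Taf6l-KO held 3842867 unique tags and RNAP-ser5 in wild type 3871824. Every polymerase count, also in wild type, is read with these depths. Peak heights, fold enrichments and −log10 q are the authors' values for each peak, and they are used here only to describe or rank peaks within a list. The control input differed between the genotypes, so fold enrichments printed side by side for them rest on different controls. Rank 1 is the highest fold enrichment of a list.

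The window was dense in polymerase and H3K4me3 peaks in every genotype. The share of the window covered by RNAP-ser2 peaks was 27.9% in Taf5l-KO, 23.1% in Taf6l-KO and 37.8% in wild type. Over the genome size given to the peak caller, the same lists covered 1.46%, 1.34% and 1.79%. RNAP peaks covered 24.0% of the window in Taf5l-KO, 17.0% in Taf6l-KO and 24.2% in wild type, against 0.977%, 1.07% and 1.10% of the genome. RNAP-ser5 peaks covered 23.6%, 5.47% and 28.1% in the same order, against 1.10%, 0.443% and 1.59%. H3K4me3 peaks covered 17.6% in Taf5l-KO, 10.2% in Taf6l-KO and 15.0% in wild type, against 1.79%, 1.59% and 1.88%. In each of these 12 lists the window was thus covered several times more densely than the genome as a whole.

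**Figure D1:**
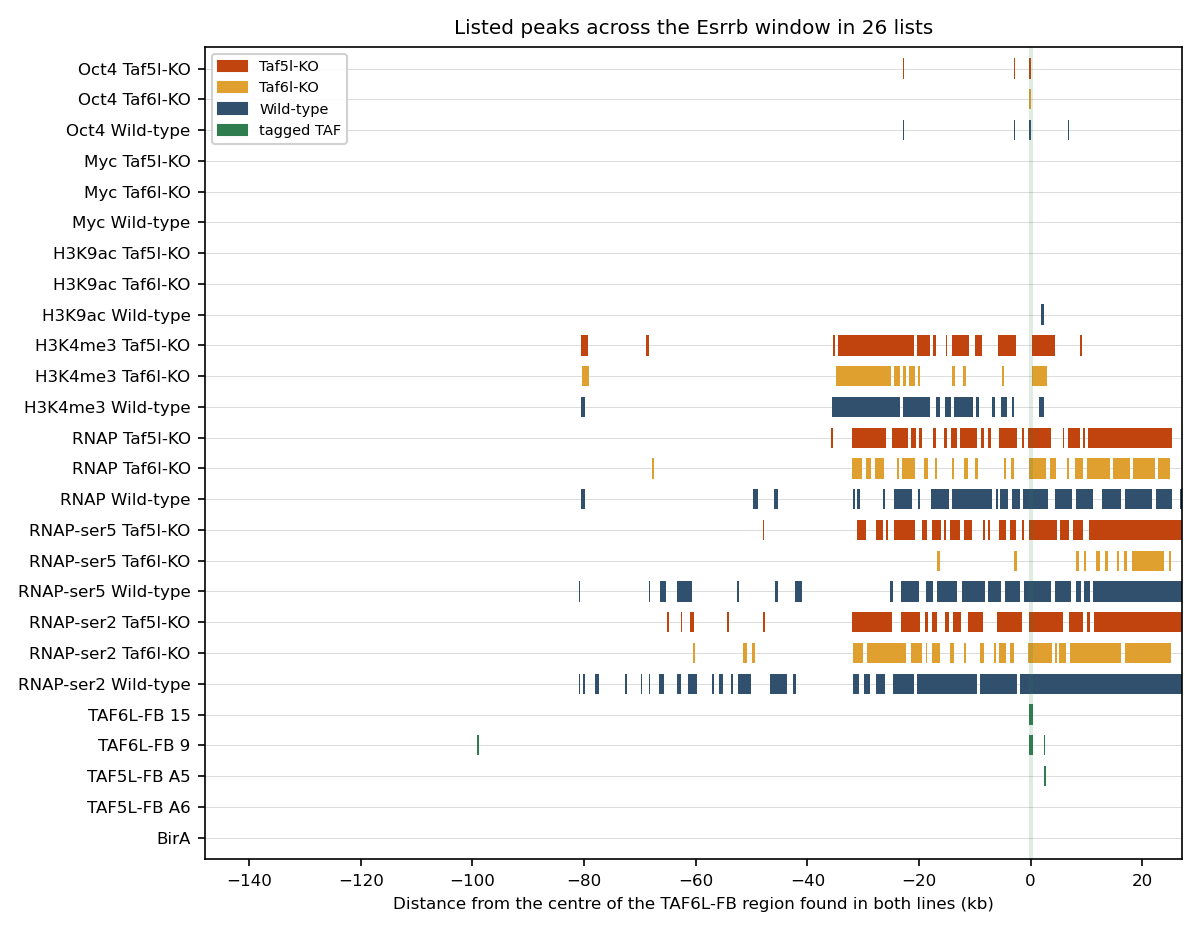
Position of every listed peak along the 175 kb window, in kb from the centre of the TAF6L-FB region found in both lines. Each of the 26 lists has 1 row, also the 7 without a peak, with the knockouts above wild type. Coloured blocks are peaks to scale. Most blocks lie in the right part of the window, and wild-type RNAP-ser2 has 15 peaks in the sparse left part, where Taf5l-KO has 5 and Taf6l-KO 3. The left part was set off after these values were seen, so nothing is read from the counts.

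TAF6L-FB was listed in 3 places. The first, chr12 positions 87842523 to 87843261 (739 bases), was found in both lines. In line 15 its fold enrichment over background was 6.03 with a −log10 q of 9.97, rank 12 of 1140 peaks. In line 9 the peak spanned 87842587 to 87843231. Its fold enrichment was 7.09 and its −log10 q 14.3, rank 8 of 628. The summits of the lines were 148 bases apart. The mean fold enrichment of 6.56 put the region at rank 3 of the 127 regions found in both lines and outside BirA peaks. The regions at ranks 1 and 2 had 7.37 and 7.03, and those at ranks 4 and 5 had 6.18 and 6.17. These values chose the window.

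The other places were listed in line 9 alone. A peak at 87743690 to 87743989 (300 bases) had a fold enrichment of 3.81, rank 483 of 628, and no peak of any of the 21 knockout-series lists lay within 1000 bases of it. A peak at 87845230 to 87845529 (300 bases) had a fold enrichment of 4.62, rank 247 of 628. It lay 1968 bases beyond the shared region. TAF5L-FB line A5 had its single peak of the window here, at 87845288 to 87845628 (341 bases), with a fold enrichment of 5.07, rank 10 of 136. The TAF6L-FB 9 and TAF5L-FB A5 peaks shared 242 bases, and their summits were 85 bases apart. TAF5L-FB A5 overlapped 1 of the 3 TAF6L-FB regions of the window, against 4.92% of all 1625 TAF6L-FB regions outside BirA peaks. TAF5L-FB was therefore not listed at the stronger TAF6L-FB region but at its weaker neighbour. The TAF5L-FB A6 list holds 7 peaks in all and the BirA list 24, so most places of the genome have none in either.

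**Figure D2:**
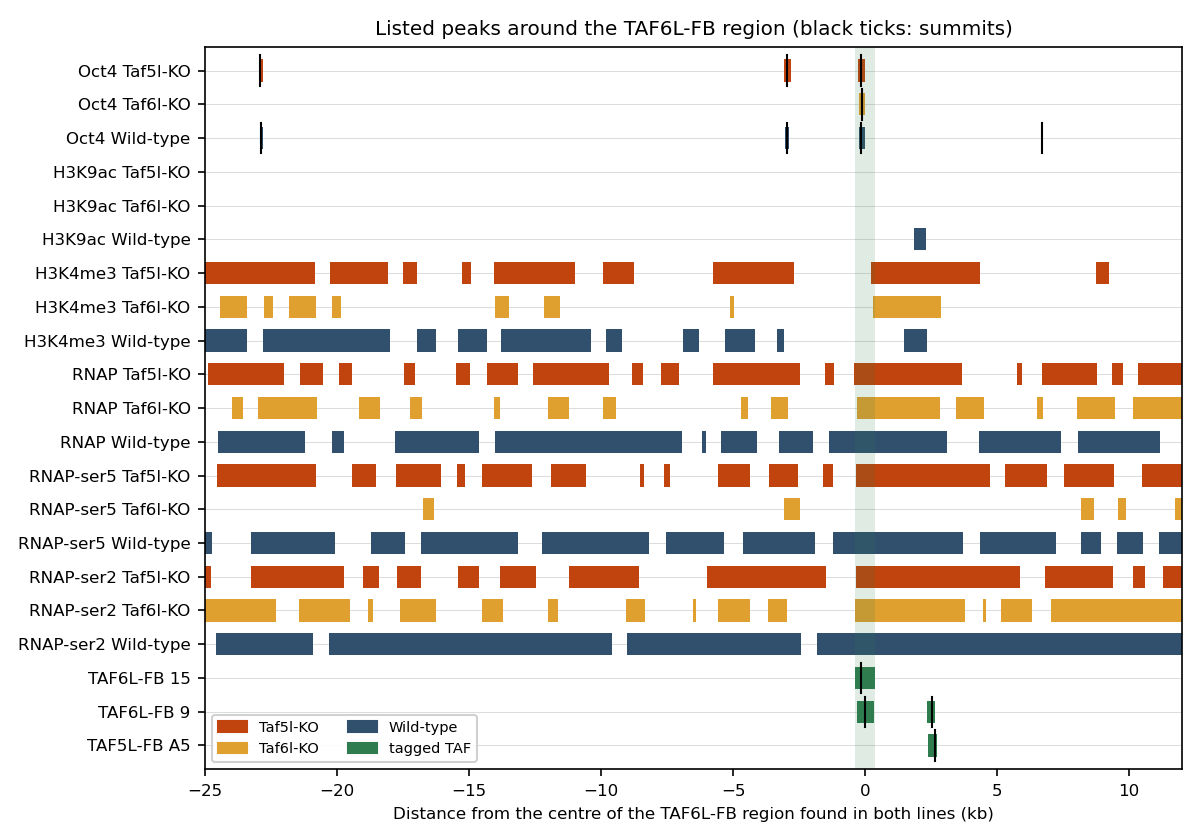
Listed peaks around the TAF6L-FB region found in both lines, in kb from its centre, with 1 row per list and the knockouts above wild type. The Myc, TAF5L-FB A6 and BirA lists are not drawn. Blocks are peaks to scale, black ticks are summits where the list gives them, and the shaded band is the TAF6L-FB region. An Oct4 peak lies in the band in all 3 genotypes, while RNAP-ser5 in Taf6l-KO and H3K4me3 in wild type have none in it.

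The shared TAF6L-FB region was overlapped by peaks of 13 of the 21 knockout-series lists. Oct4 was listed there in all 3 genotypes, whereas Oct4 overlapped 14.5% of the 1625 TAF6L-FB regions in Taf5l-KO, 11.3% in Taf6l-KO and 15.5% in wild type. RNAP was listed there in all 3 genotypes, against 61.4%, 62.1% and 54.9% of all TAF6L-FB regions in the same order. RNAP-ser2 was also listed in all 3, against 35.3%, 43.1% and 33.7%. RNAP-ser5 was listed in Taf5l-KO and wild type but not in Taf6l-KO, the shallowest library, against 30.9% in Taf5l-KO, 17.7% in Taf6l-KO and 24.0% in wild type. H3K4me3 was listed in both knockouts and not in wild type, against 55.8% in Taf5l-KO, 56.9% in Taf6l-KO and 58.3% in wild type. Neither H3K9ac nor Myc was listed there in any genotype. Over all TAF6L-FB regions, H3K9ac overlapped 0.615% in Taf5l-KO, 4.49% in Taf6l-KO and 15.1% in wild type, and Myc 0.308%, 0.185% and 3.63%. One region cannot be set apart from these shares.

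At the second TAF region, from 87845230, peaks of 11 of the 21 lists overlapped. These were H3K4me3, RNAP and RNAP-ser2 in all 3 genotypes and RNAP-ser5 in Taf5l-KO and wild type. No Oct4 peak overlapped it, while Oct4 overlapped 14.5% (Taf5l-KO), 11.3% (Taf6l-KO) and 15.5% (wild type) of all 1625 TAF6L-FB regions. The shares given above for the other targets apply here too, and 1 region cannot be set apart from them. RNAP formed 1 peak across both TAF places in Taf5l-KO, spanning 87842470 to 87846544 at 6.51-fold enrichment, and in Taf6l-KO, spanning 87842578 to 87845715 at 6.70-fold. In wild type the RNAP peak ran from 87841508 to 87845994 with 5.28. The Taf5l-KO peak was the strongest RNAP peak of the window in that list, at rank 4518 of 20583. The H3K4me3 peak at this place ran from 87843096 to 87847232 in Taf5l-KO (4137 bases, fold enrichment 4.81) and over 87843182 to 87845764 in Taf6l-KO (2583 bases, fold enrichment 4.41). In wild type it ran from 87844353 to 87845230 (878 bases, fold enrichment 4.27), which begins beyond the shared TAF6L-FB region and meets the second one by 1 base. The knockout H3K4me3 peaks were thus the longer ones here.

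Oct4, the transcription factor at the centre of the pluripotency network, had 3 peaks in the window in Taf5l-KO, 1 in Taf6l-KO and 4 in wild type. The lists would hold 0.284, 0.192 and 0.240 peaks in a window of this length on average. The peaks fell on 4 places. The summits of the wild-type peaks were 19909, 2798 and 6864 bases apart from the first place to the last.

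The third place lay inside the shared TAF6L-FB region and was the single one listed in all 3 genotypes. Its Taf5l-KO peak, 87842614 to 87842898 (285 bases), had a fold enrichment of 8.81, rank 1275 of 3034. Its Taf6l-KO peak, 87842652 to 87842879 (228 bases), had 14.2, rank 192 of 2049, within the strongest 9.37% of that list. Its wild-type peak, 87842663 to 87842869 (207 bases), had 9.20, rank 828 of 2564. The 3 Oct4 summits lay within 34 bases of each other. They were 2 bases (Taf5l-KO), 32 bases (Taf6l-KO) and 5 bases (wild type) from the TAF6L-FB 15 summit, and 150, 116 and 143 bases from the TAF6L-FB 9 summit in that order. Oct4 and TAF6L-FB were thus listed at one place within the length of a DNA fragment, which the authors set to 300 bases for the tagged proteins.

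The second place, in wild type 87839852 to 87840018 (167 bases), had the strongest Oct4 fold enrichment of the window in Taf5l-KO and in wild type. Its Taf5l-KO peak, 87839819 to 87840086 (268 bases), had 9.34, rank 1074, and its wild-type peak 9.45, rank 800. The first place had a Taf5l-KO peak at 87819943 to 87820083 (141 bases) with 5.36, rank 2771, and a wild-type peak at 87819977 to 87820085 (109 bases) with 7.14, rank 1525. Taf6l-KO had no listed Oct4 peak at either place. The last place, 87849538 to 87849646 (109 bases), was listed in wild type alone with 5.71, rank 2164. Its −log10 q was 3.53, and that of the Taf5l-KO peak at the first place 3.14. Neither was kept with a −log10 q of at least 5 or with lists cut to equal length. Either setting left 2 Oct4 peaks in Taf5l-KO, 1 in Taf6l-KO and 3 in wild type. A Taf5l-KO peak overlapped 3 of the 4 wild-type Oct4 peaks, against 59.1% of all wild-type Oct4 peaks. A Taf6l-KO peak overlapped 1 of the 4, against 46.5%. In the other direction, wild-type peaks overlapped 3 of 3 Taf5l-KO peaks, against 49.9% of that list, and 1 of 1 Taf6l-KO peaks, against 58.3%. With so few peaks these counts cannot be told from the shares of the lists.

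H3K9ac, the acetylation made by SAGA-type complexes, had no listed peak in either knockout and 1 in wild type, at 87844743 to 87845201 (459 bases). Its fold enrichment was 4.48 and its −log10 q 2.06, rank 2773 of 4131, in the weaker part of the list. It ended 28 bases before the TAF6L-FB 9 peak of the second TAF region and 86 bases before the TAF5L-FB A5 peak. The H3K9ac lists held 110 peaks in Taf5l-KO and 898 in Taf6l-KO, and knockout peaks overlapped 2.54% (Taf5l-KO) and 19.2% (Taf6l-KO) of the 4131 wild-type peaks. The absence of this 1 peak from both knockouts is therefore what most wild-type H3K9ac peaks of the series show. The wide H3K4me3 peak described next carried no listed H3K9ac peak in any genotype. Myc lists held 34 peaks in Taf5l-KO, 23 in Taf6l-KO and 538 in wild type, and none lay in the window.

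H3K4me3 formed a domain that was among the widest of the genome in every genotype. The widest H3K4me3 peak of the window ran from 87808296 to 87822067 in Taf5l-KO, over 13772 bases, and was the widest of all 32098 peaks of that list. In Taf6l-KO it ran from 87807997 to 87817878, over 9882 bases, width rank 5 of 29463. In wild type it ran from 87807327 to 87819482, over 12156 bases, width rank 4 of 32370. The median H3K4me3 peak had 787 bases in Taf5l-KO, 785 in Taf6l-KO and 788 in wild type. The widest peaks of the window ranked lower by fold enrichment than by width. Their fold enrichments of 8.56 (Taf5l-KO), 9.38 (Taf6l-KO) and 7.35 (wild type) gave ranks 9706, 8276 and 10503. These were the strongest H3K4me3 peaks of the window in their lists all the same.

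The domain's width rested partly on where the caller broke it. With peaks less than 1000 bases apart joined, a choice made after the widths had been seen, it measured 18448 bases in Taf5l-KO, 15028 in Taf6l-KO and 17560 in wild type. Its width ranks were then 1, 1 and 3. It was 1 of 3 among the 10 widest wild-type H3K4me3 peaks that a wider knockout peak overlapped. Of those 10 peaks, the widest, on chromosome 10 (14643 bases), was overlapped by knockout peaks of at most 5870 bases in Taf5l-KO and 7071 in Taf6l-KO. The peak at width rank 3, on chromosome 9 (12907 bases), met 9692 and 9965 bases in that order.

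**Figure D3:**
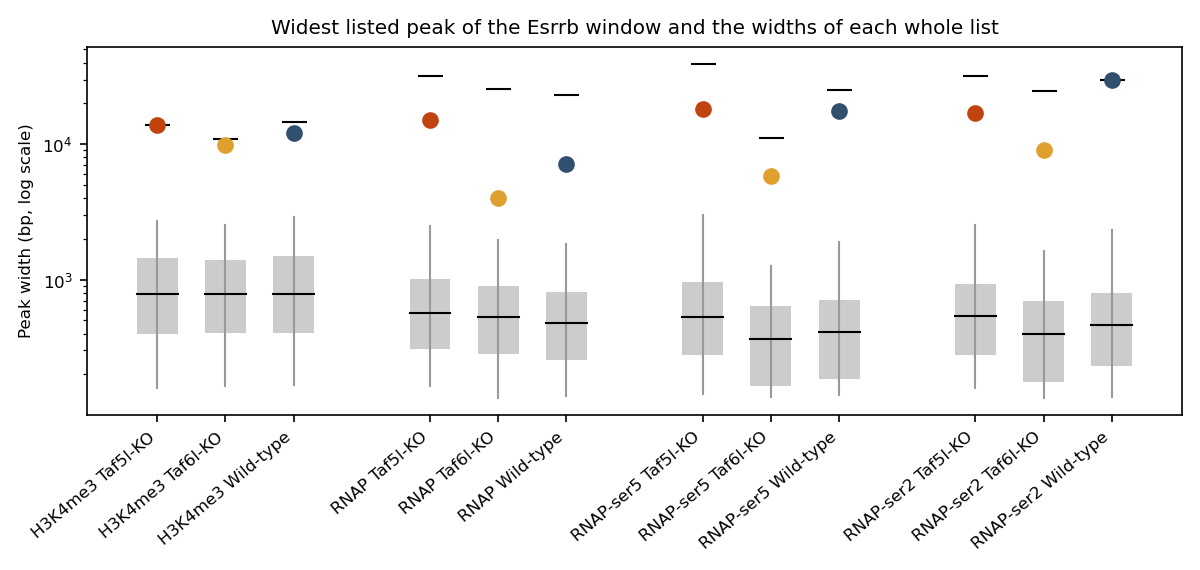
Width in bases, on a log axis, of the widest peak of the window (dot) beside the widths of all peaks of the same list, for H3K4me3 and the 3 polymerase forms, with the knockouts left of wild type. Boxes span the middle 50% of the list with the median as a bar, lines span the 5th to the 95th percentile, and the upper dash is the widest peak of the list. Every dot lies above the line, and the dots of Taf5l-KO H3K4me3 and wild-type RNAP-ser2 coincide with the widest peak of their lists.

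Counting all H3K4me3 peaks, the window held 12 in Taf5l-KO (3.12- to 8.56-fold enriched), 10 in Taf6l-KO (3.02 to 9.38) and 11 in wild type (3.28 to 7.35). The Taf6l-KO and wild-type lists average 2.76 and 3.03 peaks per window length. A Taf5l-KO peak overlapped 10 of the 11 wild-type peaks, against 84.6% of the wild-type list, and a Taf6l-KO peak 6 of the 11, against 80.8%. Wild-type peaks overlapped 10 of the 12 Taf5l-KO peaks, against 85.8%, and 10 of the 10 Taf6l-KO peaks, against 89.5%. The Taf6l-KO count of 6 lay below its list's share, and the wild-type peaks not overlapped lay to the right of the domain. These were weak peaks, with fold enrichments of 3.28 to 3.69 and a −log10 q of 1.37 to 1.97. By fold enrichment they lay between 85.3% and 97.6% of the way down the wild-type list. The one from 87835993 was not overlapped in Taf5l-KO either. The share overlapped among all wild-type peaks of such strength was not computed. In the 25 kb bin that begins at 87820001, H3K4me3 peaks covered 14.4 kb in Taf5l-KO, 4.88 kb in Taf6l-KO and 13.3 kb in wild type. Over the window, covered length in Taf6l-KO was 0.677 times that of wild type, while over the whole list the ratio was 0.842 and that of unique tags 0.862. For Taf5l-KO the ratios were 1.17, 0.951 and 0.587 in that order. The part of depth in these ratios was not tested.

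A smaller H3K4me3 peak stood apart before the domain. It ran from 87762428 to 87763672 in Taf5l-KO (1245 bases, fold enrichment 7.68), over 87762450 to 87763689 in Taf6l-KO (1240 bases, 4.56) and from 87762353 to 87763017 in wild type (665 bases, 4.43). It was listed in all 3 genotypes, and it was overlapped by polymerase peaks in wild type alone, among them an RNAP peak at 87762356 to 87763049.

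Polymerase peaks of the window were wide for their lists as well. The widest RNAP-ser2 peak ran from 87854183 to 87871237 in Taf5l-KO (17055 bases, width rank 25 of 31583) and from 87849933 to 87858986 in Taf6l-KO (9054 bases, rank 53 of 42451). In wild type it ran from 87841067 to 87870749, over 29683 bases, and was the widest of all 43039 wild-type RNAP-ser2 peaks. It spans both TAF regions and the third and last Oct4 places. In Taf5l-KO and wild type the widest peak was also the strongest RNAP-ser2 peak of the window, with fold enrichments of 5.76 (rank 924) and 6.25 (rank 907). In Taf6l-KO the strongest was another, 87859776 to 87867978, with 5.00 (rank 6443).

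For RNAP-ser5 the widest peak ran from 87853390 to 87871573 in Taf5l-KO (18184 bases, width rank 14 of 22190), from 87860996 to 87866801 in Taf6l-KO (5806 bases, rank 12 of 17000) and from 87854022 to 87871448 in wild type (17427 bases, rank 10 of 45366). The first and the last of these were also the strongest RNAP-ser5 peaks of the window, with 7.45 (rank 362) in Taf5l-KO and 6.58 (rank 325) in wild type. In Taf6l-KO a narrow peak at 87859623 to 87860144 was the strongest, with 6.21 (rank 1361). For total RNAP the widest ran from 87853210 to 87868179 in Taf5l-KO (14970 bases, rank 23), from 87853052 to 87857058 in Taf6l-KO (4007 bases, rank 288) and from 87828878 to 87835968 in wild type (7091 bases, rank 116). The strongest total RNAP peaks lay at 87865724 to 87867862 in Taf6l-KO, with 7.33 (rank 5482), and at 87865253 to 87868266 in wild type, with 6.30 (rank 5074). Peaks that end past 87870000 were counted at full width. The strongest RNAP-ser5 and RNAP-ser2 peaks thus all began at or beyond 87841067.

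**Figure D4:**
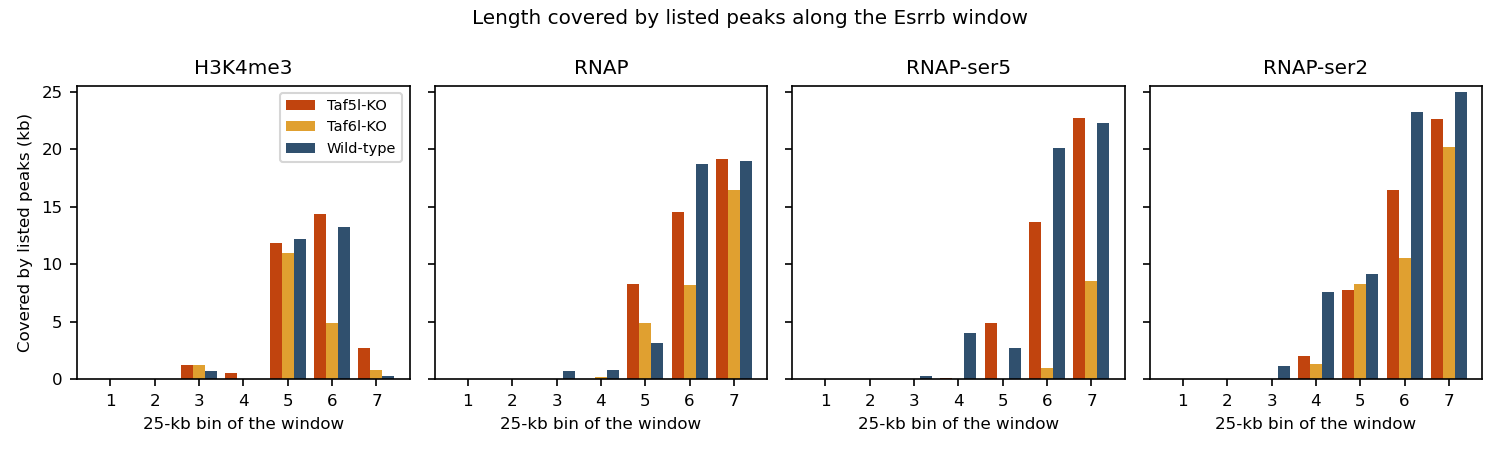
Length covered by peaks in kb, in each of 7 consecutive bins of 25 kb along the window, for H3K4me3 and the 3 polymerase forms, with Taf5l-KO and Taf6l-KO left of wild type. The last bin is covered over 22.6 kb (Taf5l-KO), 20.2 kb (Taf6l-KO) and 25 kb (wild type) by RNAP-ser2, and the first 2 bins are empty for these targets.

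The polymerase peaks fell into a dense and a sparse stretch. No list had a peak between 87801928 and 87807204, and the border was set at 87807327, where the wild-type H3K4me3 domain begins. This border was chosen after the values had been seen. From it to the window's end, 62.674 kb, RNAP-ser2 peaks covered 74.4% in Taf5l-KO, 62.2% in Taf6l-KO and 85.7% in wild type. In the 112.327 kb before it they covered 2.26 kb in Taf5l-KO, 1.34 kb in Taf6l-KO and 12.4 kb in wild type.

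In this sparse stretch wild type had more listed peaks of each polymerase form than either knockout, and its lists were also the longest. They held 31583 (Taf5l-KO), 42451 (Taf6l-KO) and 43039 (wild type) RNAP-ser2 peaks, 22190, 17000 and 45366 RNAP-ser5 peaks, and 20583, 26734 and 29370 RNAP peaks. The part of list length was not tested. RNAP-ser2 had 5 peaks that lie before the border in Taf5l-KO, 3 in Taf6l-KO and 15 in wild type. Of the 15 wild-type peaks, Taf5l-KO peaks overlapped 1, against 36.6% of the whole wild-type list, and Taf6l-KO peaks 2, against 38.7%. RNAP-ser5 had 1 peak there in Taf5l-KO, 0 in Taf6l-KO and 7 in wild type, and none of the 7 was overlapped in either knockout, against 26.2% (Taf5l-KO) and 16.5% (Taf6l-KO) of the list. Total RNAP had 0 in Taf5l-KO, 1 in Taf6l-KO and 3 in wild type, and none of the 3 was overlapped, against 52.5% (Taf5l-KO) and 60.4% (Taf6l-KO). Since the border was chosen from these values, nothing is read from the counts on its sides. From the border on, Taf5l-KO and Taf6l-KO peaks each overlapped 7 of the 7 wild-type RNAP-ser2 peaks. They overlapped 11 (Taf5l-KO) and 5 (Taf6l-KO) of 12 wild-type RNAP-ser5 peaks, and 16 and 14 of 17 wild-type RNAP peaks in that order. By fold enrichment, 14 of the 15 wild-type RNAP-ser2 peaks before the border lay above the median of their list, as did 4 of the 7 RNAP-ser5 peaks and 0 of the 3 RNAP peaks. Their fold enrichments were 3.43 to 4.61 for RNAP-ser2, 3.10 to 3.90 for RNAP-ser5 and 3.92 to 4.30 for RNAP, and their −log10 q reached 3.25, 2.16 and 2.90 at most. With a −log10 q of at least 5 required, none of them would be listed in wild type.

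Over the whole window, Taf5l-KO peaks overlapped 8 of the 22 wild-type RNAP-ser2 peaks, against 36.6% of that list, and Taf6l-KO peaks 9 of the 22, against 38.7%. These counts lie near the shares of the lists. For RNAP-ser5 they overlapped 11 of 19, against 26.2% (Taf5l-KO), and 5 of 19, against 16.5% (Taf6l-KO). For RNAP they overlapped 16 of 20, against 52.5% (Taf5l-KO), and 14 of 20, against 60.4% (Taf6l-KO). In the other direction, wild-type peaks overlapped 13 of 17 Taf5l-KO RNAP-ser2 peaks, against 50.2%, and 18 of 19 Taf6l-KO peaks, against 43.3%. For RNAP-ser5 they overlapped 14 of 19 Taf5l-KO peaks, against 51.7%, and 10 of 10 Taf6l-KO peaks, against 47.4%. For RNAP they overlapped 17 of 18 Taf5l-KO peaks, against 72.7%, and 18 of 21 Taf6l-KO peaks, against 66.8%. Wide peaks overlap another list more readily than narrow ones, and the median wild-type peak of the window had 781 bases for RNAP-ser2, 1276 for RNAP-ser5 and 1325 for RNAP, against 464, 412 and 479 over the lists. The part of width in these shares was not tested.

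Among the polymerase forms, the covered length of the knockouts lay farthest apart for RNAP-ser5. Covered length in the window was 41.3 kb in Taf5l-KO, 9.58 kb in Taf6l-KO and 49.2 kb in wild type. Relative to wild type, the window ratio was 0.838 in Taf5l-KO and 0.195 in Taf6l-KO. The same ratio over the whole lists was 0.690 and 0.278, and that of unique tags 2.27 and 0.440. For RNAP-ser2 the window ratios were 0.739 in Taf5l-KO and 0.611 in Taf6l-KO, against 0.815 and 0.750 over the lists and 0.856 and 0.610 in tags. For RNAP they were 0.991 and 0.703, against 0.888 and 0.969 over the lists and 3.07 and 1.40 in tags. The mean fold enrichment of the window's peaks was 4.41 (Taf5l-KO), 4.49 (Taf6l-KO) and 4.12 (wild type) for RNAP-ser5, 4.10, 3.89 and 4.28 for RNAP-ser2, and 4.47, 4.73 and 4.50 for RNAP. Covered length was lower in Taf6l-KO than in the other genotypes for all 3 forms, and in the RNAP-ser5 and RNAP-ser2 libraries it had the fewest tags. The part of depth was not tested.

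**Figure D5:**
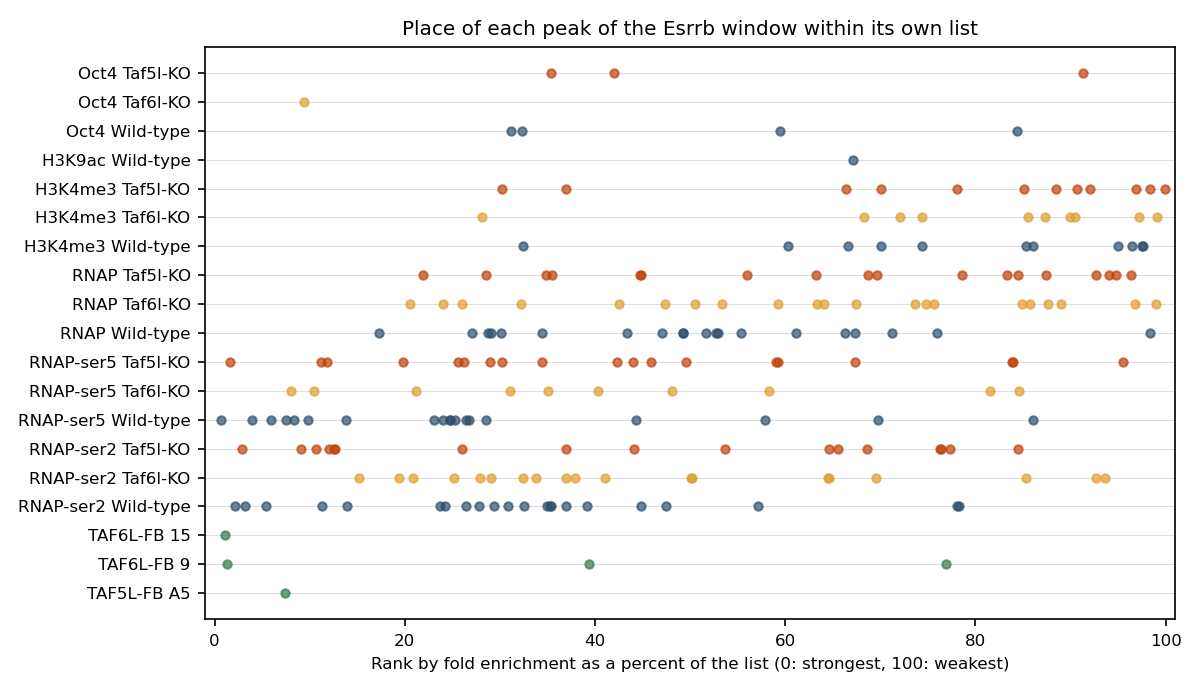
Place of each peak of the window within its own list by fold enrichment, as the top percent of the list. Each list that holds a peak has 1 row, with the knockouts above wild type. The TAF6L-FB peaks at ranks 12 of 1140 and 8 of 628 lie at the strong end, the Taf6l-KO Oct4 peak lies within the strongest 9.37%, and the polymerase and H3K4me3 peaks spread over their lists.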

How the data were processed

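Peaks of 26 ChIP-seq libraries of J1 mouse embryonic stem cells were analysed, 1 list per library, with nothing pooled. The submitters' processing notes name Bowtie2 2.3.2, deepTools 2.5.3, MACS2 2.1.1.20160309 and the mm9 build. Per the file headers, MACS2 used an input as control, a q cutoff of 0.05 and at most 1 tag per position, and scaled the larger library to the smaller. Broad linking (second cutoff 0.1) was on for H3K9ac, H3K4me3 and the polymerase forms and off for the others, per the file headers. The fragment length was set to 300 bases for the TAF lists, per the file headers. The deposited lists give a pileup (a coverage signal), a fold enrichment (a ratio to local background), and −log10 p and −log10 q, all made by the authors' peak caller.

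Every peak of the window was taken, with overlap defined as at least 1 shared base, using Python 3.11.15, numpy 2.4.6 and pandas 2.3.3, and figures were drawn with matplotlib 3.10.9. Covered length was counted inside the window and width over the whole peak. The overlap step was tested on simulated lists. Positions are given for every TAF, BirA, Oct4, Myc and H3K9ac peak, the strongest peak of each list and the widest H3K4me3 peaks. The positions of the widest polymerase peaks, of the smaller H3K4me3 peak and of the peaks at the TAF regions were added after their values were seen. The window, its members and these rules were chosen with earlier results of these data known. Alternatives were a −log10 q of at least 5, merging of peaks less than 1000 bases apart, lists of equal length, 50% cover, overlap within 1000 bases, leaving out each TAF6L-FB line, and ranks by −log10 q. The 6 inputs among the samples were used only through the file headers. In the knockout series the labels name an input for wild type and none for either knockout. By the headers the control held 6245652 unique tags for the Taf5l-KO lists, 5923469 for Taf6l-KO and 7771755 for wild type. Each genotype was thus called against a different control. Exact binomial 95% intervals of the whole-list shares were computed but are not printed, since they cover counting error only and there is 1 library per antibody and genotype.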

Additional observations from a re-analysis of the deposited data

Results flagged for a closer look

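Among peak counts, covered lengths and widest peaks of the window, the knockouts lay on opposite sides of wild type in 7 measures. Each rests on 1 library per genotype and the difference was not tested. The length covered by Oct4 peaks was 694 bases in Taf5l-KO, 228 in Taf6l-KO and 592 in wild type, so that Taf5l-KO exceeded Taf6l-KO by 466 bases. H3K4me3 peaks numbered 12 in Taf5l-KO, 10 in Taf6l-KO and 11 in wild type, a difference of 2 between the knockouts. With lists cut to equal length they numbered 8, 10 and 7 in that order, so the order of the knockouts turned and both lay above wild type. With merging they numbered 8, 6 and 6. Neither setting kept the knockouts on opposite sides of wild type. H3K4me3 peaks covered 30745 bases in Taf5l-KO, 17814 in Taf6l-KO and 26326 in wild type, a difference of 12931. The widest H3K4me3 peak measured 13772, 9882 and 12156 bases in the same order, a difference of 3890. RNAP peaks numbered 18 in Taf5l-KO, 21 in Taf6l-KO and 20 in wild type, a difference of -3. With lists cut to equal length they numbered 18, 15 and 17, so the knockouts changed places. The widest RNAP peak measured 14970 bases in Taf5l-KO, 4007 in Taf6l-KO and 7091 in wild type, a difference of 10963. The widest RNAP-ser5 peak measured 18184, 5806 and 17427 bases in the same order, a difference of 12378. With peaks less than 1000 bases apart merged, both knockouts lay below wild type in these last 2 widths. Unique tags in H3K4me3 were 0.587 (Taf5l-KO) and 0.862 (Taf6l-KO) times those of wild type, and their part in these values was not tested.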

How the results depend on the processing

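No paired analysis was possible because the labels give 1 library per antibody and genotype and no shared replicate numbers. Within 1000 bases instead of overlap, all 23 values stayed within 1.5 times the reported count. At that limit, the wild-type RNAP-ser2 peaks matched in Taf5l-KO rose from 8 to 12 of 22. The shares of the whole lists within 1000 bases were not computed. With a −log10 q of at least 5, the window held (Taf5l-KO, Taf6l-KO, wild type) 2, 1 and 1 H3K4me3 peaks, 3, 4 and 2 RNAP peaks, 1, 2 and 1 RNAP-ser5 peaks, 1, 0 and 2 RNAP-ser2 peaks, and 0 H3K9ac peaks in wild type. Wild-type peaks overlapped in Taf5l-KO and Taf6l-KO were then 1 and 1 (H3K4me3), 1 and 2 (RNAP), 1 and 1 (RNAP-ser5), and 1 and 0 (RNAP-ser2). Knockout peaks overlapped in wild type numbered 1 and 1, 1 and 2, 1 and 2, and 1 and 0 in the same order, and 6 of the 21 lists reached the shared TAF6L-FB region. With peaks less than 1000 bases apart merged, H3K4me3 had 8 in Taf5l-KO, 6 in Taf6l-KO and 6 in wild type. RNAP then had 6, 12 and 11 peaks (Taf5l-KO, Taf6l-KO, wild type), RNAP-ser5 8, 6 and 10, and RNAP-ser2 11, 10 and 14. The widest merged RNAP-ser5 peak was 18184, 8255 and 47269 bases and the widest RNAP-ser2 peak 28709, 25480 and 52442. The widest merged RNAP peak was 19535, 16949 and 20913 bases, so that wild type, not Taf5l-KO, was then the widest. This merging of widths was chosen after seeing the data. With lists cut to equal length, wild type had 0 H3K9ac peaks. H3K4me3 then had 8, 10 and 7 peaks and RNAP 18, 15 and 17 (Taf5l-KO, Taf6l-KO, wild type), which turns the order of the knockouts for both. With 50% of a wild-type peak covered, Taf6l-KO peaks overlapped 3 of 11 H3K4me3, 8 of 20 RNAP, 1 of 19 RNAP-ser5 and 5 of 22 RNAP-ser2 peaks. Taf5l-KO peaks then overlapped 8, 12, 6 and 8 in the same order. Whole-list shares at 50% cover or at a −log10 q of at least 5 were not computed. These counts therefore cannot be read as a loss at this window. Leaving out a TAF6L-FB line left 1 to 3 regions, 1 without line 9, and 1 when both lines were required. Ranked by −log10 q, the shared region stood at 53 in line 15 and 33 in line 9. The causes were not tested, beyond the fewer peaks that a stricter threshold or a shorter list holds by construction.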
